A study of Mus musculus with 10 samples.

Results

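The genes described here are 7 mouse genes of the Spink family (serine protease inhibitors, Kazal type), among 30142 genes measured under a single symbol in luminal epithelial cells of the prostate. They are Spink1, Spink5, Spink14, Spinkl, Spink8, Spink2 and Spink4, and each was read from the 1 array row annotated with its symbol. The family was put together by name and was chosen in part by the differences between the same groups on the same arrays, Spink1, Spink5 and Spinkl being among the genes known to differ. The differences of the members between groups are therefore given as a description with standard errors. Calls of members are counted beside the share of all genes called, and nothing is read from them. Another 6 Spink genes were measured and serve as comparison.

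RNA came from male mice carrying Hoxb13-rtTA and TetO-H2BGFP, in which doxycycline switches on a histone-bound green fluorescent protein in cells that use the Hoxb13 promoter. Regenerated mice (n = 4) were castrated by removal of both testes when 12 weeks old, regressed for 6 weeks and then received testosterone for 4 weeks from implants under the skin. Castrated mice (n = 3) had the operation when 12 weeks old and were sampled after 6 weeks of regression. Intact mice (n = 3) were untreated, and their age at collection is not stated in the sources used here. All mice, controls included, carried both transgenes and drank doxycycline at 2 mg/ml for 1 week before collection. Cells were sorted as positive for the fluorescent protein and CD24, intermediate for CD49f and negative for CD45, CD11b and the macrophage antigen encoded by Adgre1. Since the reporter is driven by Hoxb13, the sort holds only cells in which that promoter was active. The labels call the samples biological replicates and do not say whether a sample is 1 animal or a pool, so errors measure the spread between these samples. No group was castrated for the longer time without testosterone, so time since castration and testosterone cannot be told apart.

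Spink proteins are small secreted inhibitors built from Kazal domains, in which disulfide bonds hold out a loop that a serine protease binds as if it were a substrate. Spink1 blocks trypsin and protects the pancreas from its own zymogens, and in the mouse it is also a product of the male accessory glands that binds sperm. Spink5 encodes LEKTI, a protein with many Kazal domains that restrains the kallikreins of the skin and is mutated in Netherton syndrome. Spinkl is known in the mouse from the seminal vesicle, where its protein binds sperm. Spink2 is needed in the testis to keep acrosin in check while the acrosome forms, Spink4 is a product of intestinal goblet cells, and Spink8 is known from the epididymis of the mouse.

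Values are log2 RMA intensities, so that a difference of 1 is a doubling of the signal. Array medians ran from 4.12 to 4.22 and the highest value of any array was 19.93. Of the 230 readings of background control rows, 95% lay under 4.76 and the highest was 6.40, on castrated replicate 3. The sorted cells carried luminal markers: all 8 measured ones lay above 6.40 in at least 1 group, and keratin Krt18 was 16.66 to 17.01 in regenerated, 18.21 to 18.65 in castrated and 16.86 to 17.26 in intact arrays. Hoxb13 averaged 9.47 ± 0.86 in regenerated, 7.74 ± 0.20 in castrated and 10.39 ± 0.17 in intact arrays (SD). Of the genes behind the negative sort, Ptprc, which encodes CD45, stayed between 3.55 and 3.76 on all arrays, while Itgam, which encodes CD11b, is described with the other leukocyte markers. In sorted but bulk RNA, fewer cells expressing a gene and less RNA per cell cannot be told apart.

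The first comparison asks what 6 weeks of castration did to these transcripts. Spink1, Spink5, Spinkl and Spink14 were all lower in castrated than in intact arrays, with differences from -11.98 to -2.01 log2. Spink8, Spink2 and Spink4 differed by less than 0.4 log2. After testosterone Spink1 again read near the ceiling of the scale, as in intact arrays, where a remaining difference would be hard to see. Spinkl was part of the way to its intact level in regenerated replicates 1, 2 and 4 and above it in replicate 3. Spink5 was part of the way to its own. Spink14 stayed near its castrated level, and Spink8 was higher than in either other group.

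**Figure D1:**
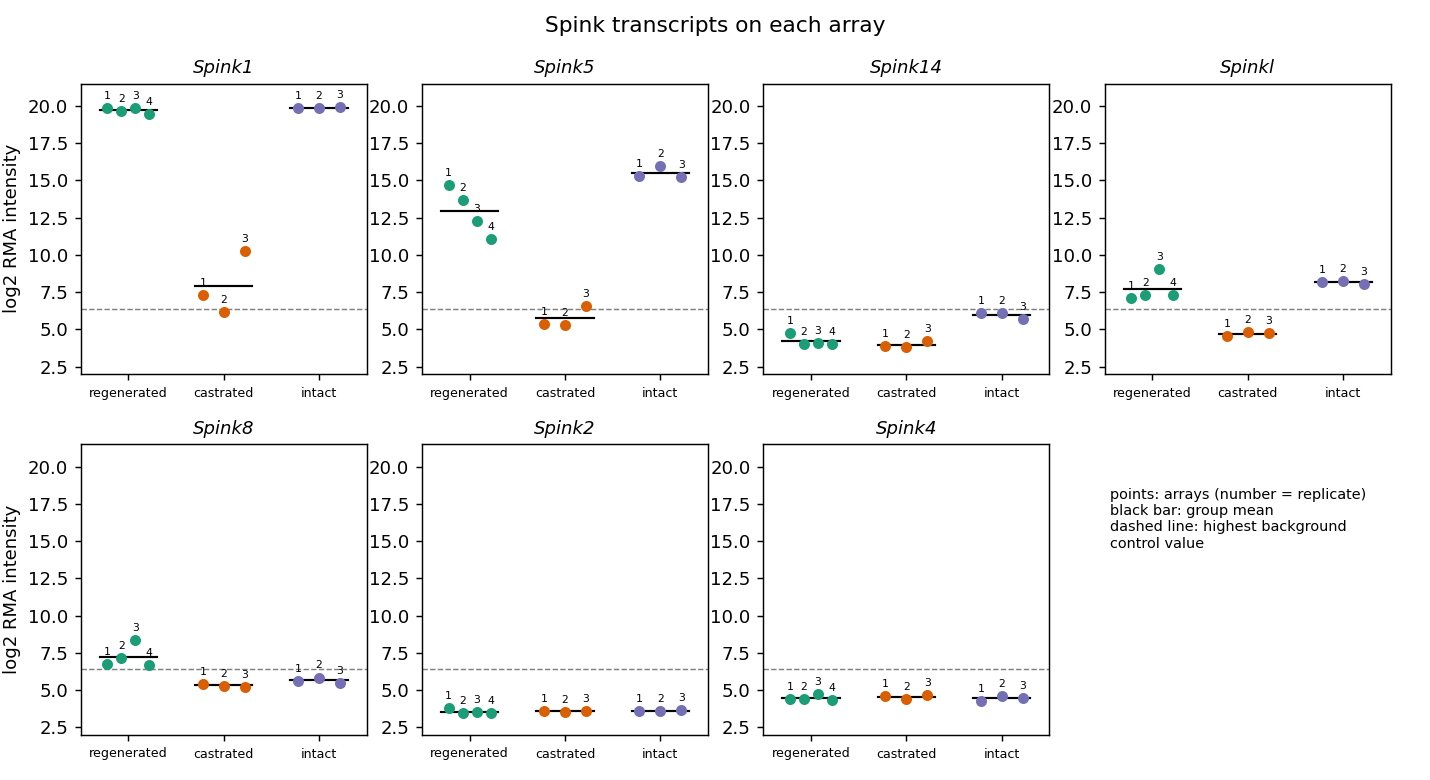
Log2 RMA intensity (vertical axis) of the 7 Spink genes in regenerated, castrated and intact arrays. Each point is 1 array with its replicate number, black bars are group means and the dashed line is the highest background control value of 6.40. Castrated arrays lie below intact ones for Spink1, Spink5, Spink14 and Spinkl, and Spink2 and Spink4 lie below the dashed line throughout.

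Spink1, the trypsin inhibitor, read 7.31, 6.20 and 10.25 in castrated replicates 1, 2 and 3, against 19.89, 19.89 and 19.91 in intact arrays. All castrated arrays were far below all intact ones, and castrated replicate 3 kept more signal than the other castrated arrays. The mean was 7.92 ± 2.09 in castrated and 19.89 ± 0.01 in intact arrays (SD, n = 3 each), a difference of -11.98 ± 0.76 log2 (limma SE). Leaving out castrated replicate 3 moved it to -13.14, and leaving out castrated replicate 2 to -11.12. Intact arrays lay 0.01 to 0.04 below the highest value on their array, a ceiling of the scale, so the true difference may be larger.

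Spink5, which encodes the multi-domain inhibitor LEKTI, read 5.38, 5.29 and 6.57 in castrated arrays, against 15.31, 15.97 and 15.23 in intact arrays. The groups did not overlap, and replicate 3 was again the highest castrated array. The mean was 5.75 ± 0.72 in castrated and 15.50 ± 0.41 in intact arrays (SD, n = 3 each), and the difference was -9.76 ± 0.77 log2. Its castrated mean lay under the highest background value, so the size of this difference depends on the floor of the array.

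Spinkl, the seminal vesicle inhibitor, read 4.56, 4.83 and 4.73 in castrated arrays, against 8.19, 8.22 and 8.07 in intact arrays. Both groups were tight and did not overlap, and the difference was -3.45 ± 0.42 log2. The castrated values lay under the highest background value, so this size depends on the floor too. Spink14, whose function is not well described, read 3.86, 3.80 and 4.22 in castrated arrays, against 6.11, 6.10 and 5.68 in intact arrays. The difference was -2.01 ± 0.21 log2 with no overlap, although every value lay under the highest background value of 6.40. With values under 4.76 raised to that number, the Spink14 difference was -1.20.

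Spink8, the epididymal gene, read 5.42, 5.30 and 5.23 in castrated arrays, against 5.63, 5.85 and 5.51 in intact arrays. The castrated arrays were all below the intact ones, but by only -0.35 ± 0.36 log2 on average. Both groups lay under the highest background value of 6.40, though each intact value lay above the highest background of its own array. Spink2, the acrosin-related gene of the testis, read 3.52 to 3.63 in castrated and 3.58 to 3.67 in intact arrays. Spink4, the goblet cell gene, read 4.39 to 4.65 in castrated and 4.29 to 4.64 in intact arrays. For both genes the groups overlapped and no value rose above 4.76, so the arrays give no level of them above background.

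Read against the whole table, limma called 4 of the 7 members lower in castrated arrays at a Benjamini-Hochberg adjusted p under 0.05, where 3.19% of all genes were called lower. It called none higher, where 4.82% of all genes were. The 4 genes with an unadjusted p under 0.05 were the same ones. Because the members were chosen with these differences known, nothing is read from that count. The median over the 7 members was -2.01 log2, beside a median of 0.04 over all genes.

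**Figure D2:**
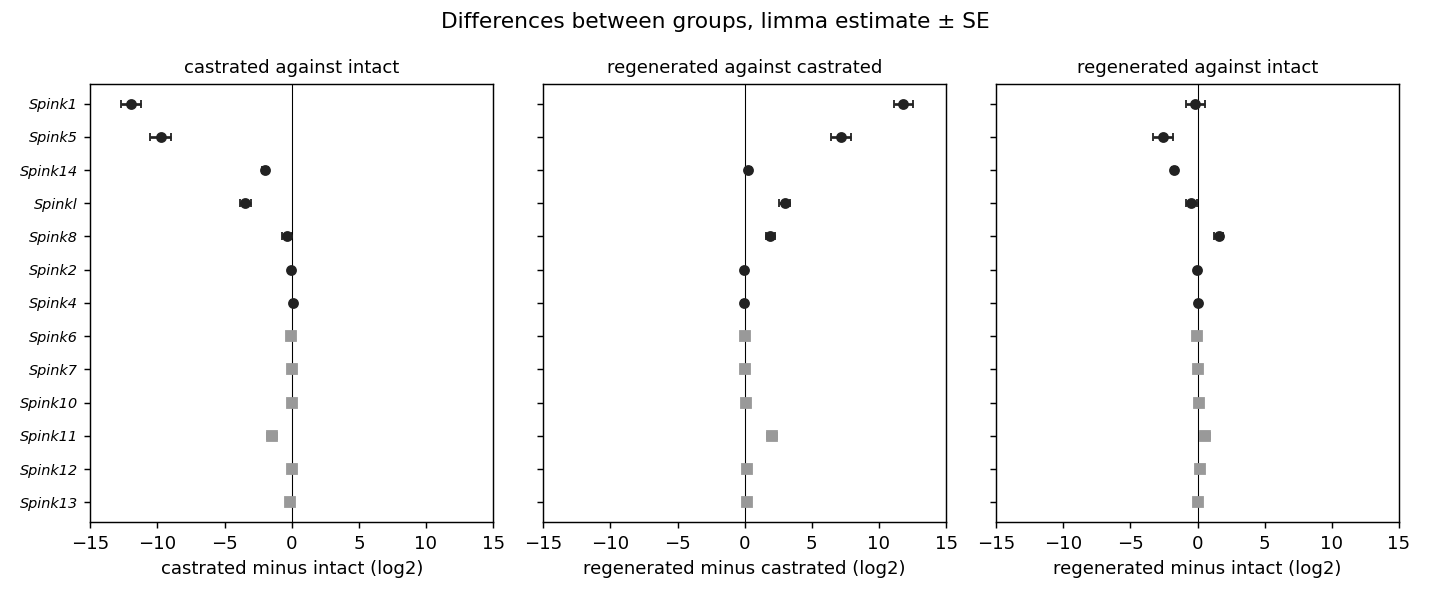
Differences between groups in log2 (horizontal axis, tested minus comparison group as named under each panel) for 13 Spink genes, with limma standard errors. Black circles are the 7 members and grey squares the other Spink genes. Spink1 and Spink5 lie far to the left in castrated against intact and far to the right in regenerated against castrated, and Spink5, Spink14 and Spink8 lie off the zero line in regenerated against intact.

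The second comparison asks how the transcripts stood after testosterone, against castrated arrays. Both comparisons use the same castrated arrays, so a low castrated value enters each of them. Spink1 read 19.89, 19.68, 19.84 and 19.49 in regenerated replicates 1 to 4, against 6.20 to 10.25 in castrated arrays. Every regenerated array was near the ceiling of the scale, and the difference was 11.81 ± 0.71 log2. Spink5 read 14.71, 13.66, 12.26 and 11.10 in regenerated arrays, against 5.29 to 6.57 in castrated arrays. The difference was 7.18 ± 0.72 log2, with a range of 3.61 among regenerated arrays where intact arrays spanned 0.74.

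Spinkl read 7.08, 7.33, 9.06 and 7.33 in regenerated arrays, against 4.56 to 4.83 in castrated arrays. All regenerated arrays were higher, by 2.99 ± 0.40 log2 on average, and replicate 3 stood above the other regenerated arrays. Spink8 read 6.77, 7.13, 8.35 and 6.68 in regenerated arrays, against 5.23 to 5.42 in castrated arrays. The groups did not overlap and the difference was 1.92 ± 0.34 log2, with replicate 3 again the highest. Spink14 read 4.78, 4.05, 4.12 and 4.01 in regenerated arrays, against 3.80 to 4.22 in castrated arrays. Those groups overlapped, and the difference was 0.28 ± 0.20 log2.

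Spink2 read 3.46 to 3.78 in regenerated and 3.52 to 3.63 in castrated arrays, and Spink4 read 4.31 to 4.71 in regenerated and 4.39 to 4.65 in castrated arrays. Both stayed at the background level. In all, limma called 4 of the 7 members higher in regenerated arrays, where 1.97% of all genes were called higher, and none lower, where 3.01% were. The median over the members was 1.92 log2, beside -0.01 over all genes, and the same limit on reading that count applies.

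The third comparison sets regenerated against intact arrays. Spink1 averaged 19.72 ± 0.18 in regenerated (SD, n = 4) and 19.89 ± 0.01 in intact arrays (n = 3), a difference of -0.17 ± 0.71 log2 at the ceiling of the scale. Spink1 lay 0.04 below the highest value of every regenerated array. That highest value was 19.72 and 19.53 on regenerated replicates 2 and 4, against 19.92 to 19.93 on intact arrays, so the difference followed the ceiling. Spinkl averaged 7.70 ± 0.91 in regenerated and 8.16 ± 0.08 in intact arrays. Its groups overlapped, through replicate 3 alone: the other regenerated arrays were below all intact arrays. Without that replicate the Spinkl difference was -0.91 log2, and with it -0.46 ± 0.40.

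Spink5 averaged 12.93 ± 1.58 in regenerated and 15.50 ± 0.41 in intact arrays. All 4 regenerated arrays were below the lowest intact array, and the difference was -2.57 ± 0.72 log2. Without regenerated replicate 4, the lowest array, it was -1.96, and without regenerated replicate 1, the highest, it was -3.17. Spink14 averaged 4.24 ± 0.36 in regenerated and 5.97 ± 0.25 in intact arrays, a difference of -1.73 ± 0.20 log2 with no overlap. Spink8 averaged 7.23 ± 0.77 in regenerated and 5.67 ± 0.17 in intact arrays, again with no overlap, and the difference was 1.57 ± 0.34 log2.

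Of the 7 members limma called only Spink14 in this comparison, as lower in regenerated arrays, where 0.00332% of all genes were called lower. Spink14 was the 1 gene called lower among all 30142. None of the members was called higher, where 0.0332% of all genes were, and 3 members, Spink5, Spink14 and Spink8, had an unadjusted p under 0.05. Nothing is read from these counts, since the members were chosen with these differences known. The Spink14 call ended without intact replicate 1 or 2, castrated replicate 1 or 2, or regenerated replicate 2 or 3, and also without the variance trend, with quantile normalization repeated, with only the 2 groups fitted, with values under 4.76 raised to it or with a replicate block. The direction and size of the Spink14 difference stayed between -1.91 and -1.65 log2 in every fit that left out 1 array.

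**Figure D3:**
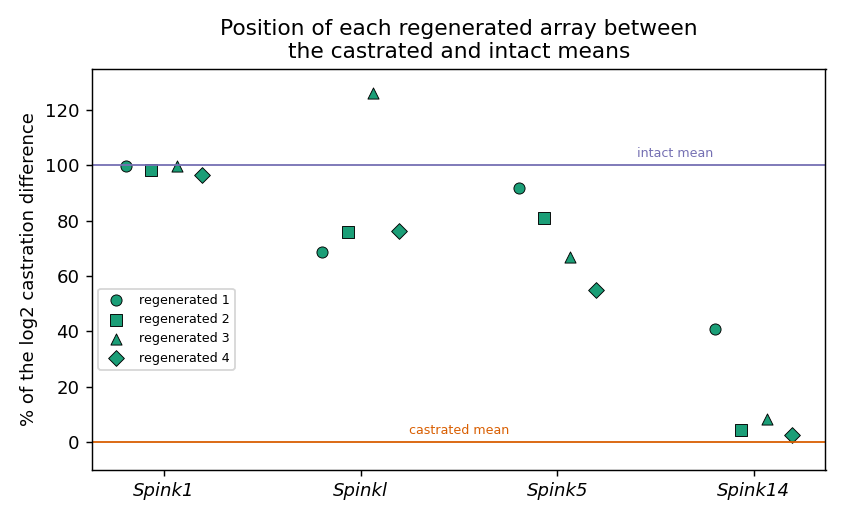
Position of each regenerated array between the castrated mean (0%) and the intact mean (100%) on the log2 scale, for the 4 members at least 1 log2 lower in castrated than in intact arrays. Symbols mark the regenerated replicate. Spink1 arrays lie at 96.6% to 99.9%, Spink5 arrays are spread from 54.9% to 91.9%, and 3 of 4 Spink14 arrays lie under 10%.

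The same values can be placed on a common scale, as the share of the log2 difference between castrated and intact means that a regenerated array had regained. That share averaged 98.6% for Spink1 (96.6% to 99.9% over 4 arrays), 86.7% for Spinkl (68.6% to 126%), 73.7% for Spink5 (54.9% to 91.9%) and 14.0% for Spink14 (2.4% to 40.8%). The genes thus differed in mean share, though Spinkl in regenerated replicates 1, 2 and 4 (68.6%, 76% and 76.1%) lay inside the Spink5 range. The ceiling of the scale compresses the Spink1 share toward its upper end, and the floor affects the Spink5, Spinkl and Spink14 shares. The Spink1 shares also followed the highest value of each regenerated array. The differences between genes in this share were not tested.

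The regenerated arrays did not keep 1 order across the family. Replicate 1 was the highest for Spink1, Spink5, Spink14 and Spink2, and replicate 3 was the highest for Spinkl, Spink8 and Spink4. Replicate 4 was the lowest for 6 of the 7 members, and the lowest Spinkl value was in replicate 1. Spink1 lay 0.04 below the highest value of each regenerated array, so its order followed that ceiling. Spink14, Spink2 and Spink4 lay inside the background range in regenerated and castrated arrays, where an order carries little meaning. Hoxb13, the gene behind the sort, was also lowest in replicate 4, at 8.26, against 9.61 to 10.27 in the other regenerated arrays. Its part in the Spink5 values was not tested. Among castrated arrays replicate 3 was the highest for Spink1, Spink5, Spink14 and Spink4, and replicate 2 was the lowest for those 4 genes and Spink2.

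Since Spinkl and Spink8 are known from the seminal vesicle and epididymis, markers of those organs were set beside them. Of 10 measured markers 4 lay above the highest background value in at least 1 group, among them Svs5, a seminal vesicle secretory protein, and Pate4, a protein of the same gland. The log2 of their summed intensity ran from 7.90 to 17.43 in regenerated, 13.95 to 15.63 in castrated and 12.08 to 16.01 in intact arrays. None of the 10 was called in any comparison. Pate4 averaged 11.82 in regenerated, 14.91 in castrated and 12.95 in intact arrays. In the same order Svs5 averaged 10.82, 6.61 and 12.47, Svs2 9.34, 4.81 and 9.95, and Svs4 6.87, 5.31 and 8.57. These Svs genes were thus lowest in castrated arrays on average, while Pate4 was highest there. Regenerated replicate 3, the highest array for Spinkl and Spink8, was the lowest regenerated array for these markers, with Svs5 at 5.09 and Pate4 at 4.59. Regenerated replicate 4 was the highest regenerated array for them, with Svs5 at 15.59 and Pate4 at 16.87, and had Spinkl at 7.33 and Spink8 at 6.68. The epididymal marker Lcn5 stayed between 3.54 and 3.83 in regenerated, 3.49 and 3.76 in castrated, and 3.59 and 3.72 in intact arrays.

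**Figure D4:**
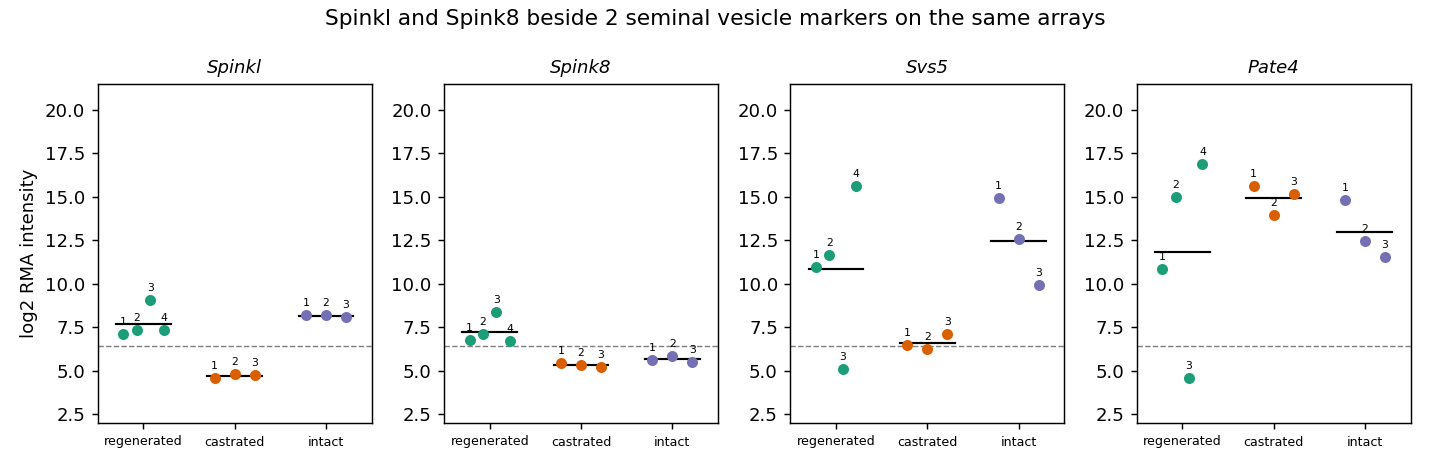
Log2 RMA intensity of Spinkl and Spink8 beside the seminal vesicle markers Svs5 and Pate4 on the same arrays. Points are arrays with their replicate number, bars are group means and the dashed line is the highest background control value. Regenerated replicate 3 is the highest point for Spinkl and Spink8 and the lowest for Svs5 and Pate4.

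Markers of other cells were summed in the same way. The stromal list was lower in castrated arrays, at 7.71 to 9.36, than in regenerated (11.02 to 11.93) or intact arrays (11.45 to 12.79). Of its 8 measured genes only the proteoglycan gene Dcn lay above the highest background value. The collagen gene Col1a1 was at 4.27 to 4.44 throughout. In castrated against intact arrays 1 of the 8, Dcn, was called lower and none higher, where 3.19% and 4.82% of all genes were. Dcn averaged 7.53 ± 1.35 in castrated and 12.23 ± 0.73 in intact arrays (SD, n = 3 each). Its difference was -4.70 ± 0.61 log2 (limma adjusted p = 0.00143). In regenerated arrays Dcn averaged 11.37 ± 0.46 (n = 4). Against castrated arrays 1 of the 8 was called higher there and none lower, where 1.97% and 3.01% of all genes were. The leukocyte list was 8.54 to 9.62 in regenerated, 9.41 to 12.02 in castrated and 8.47 to 10.01 in intact arrays. Of its genes, 2 of 9 lay above the highest background value. The castrated sums were led by the T cell gene Cd3e, at 11.32, 11.76 and 8.26 in castrated replicates 1, 2 and 3. In castrated against intact arrays 1 of the 9 was called higher and none lower, where 4.82% and 3.19% of all genes were. The gene called, Itgam, averaged 4.29 ± 0.12 in castrated and 3.91 ± 0.07 in intact arrays (SD, n = 3 each), inside the background range. Its difference was 0.38 ± 0.08 log2 (limma adjusted p = 0.0181). That call ended without intact replicate 1 or 2 or castrated replicate 2 (limma adjusted p from 0.0667 to 0.0848) and with values under 4.76 raised to it, which made the difference 0. In regenerated against castrated arrays 1 was called lower and none higher, where 3.01% and 1.97% of all genes were. The gene called was Cd3e, a T cell receptor subunit gene. It averaged 6.40 ± 0.74 in regenerated (n = 4) and 10.45 ± 1.91 in castrated arrays (n = 3), a difference of -4.04 ± 0.87 log2 (limma adjusted p = 0.0253). The Cd3e call ended without castrated replicate 1 or 2 or regenerated replicate 2 or 3, or with low values raised (limma adjusted p from 0.0674 to 0.103). Cd3e averaged 7.05 ± 1.46 in intact arrays (n = 3), and castrated minus intact was 3.39 ± 0.93 log2 (limma adjusted p = 0.0507). Castrated replicate 3, with the most Spink1 signal in its group, had the lowest leukocyte sum of the group, at 9.41, against 11.80 and 12.02. The basal list was 11.64 to 14.07 in regenerated, 11.05 to 12.22 in castrated and 10.61 to 10.86 in intact arrays, led by keratin Krt15, with 3 of 8 genes above that value. Its median gene was highest in castrated arrays, at 5.47 to 5.65, against 4.67 to 4.92 in regenerated and 4.69 to 4.88 in intact arrays. In castrated against intact arrays 2 of the 8 were called higher and none lower. They were Krt17 (1.31 ± 0.16 log2, limma adjusted p = 0.000876) and Krt14 (0.52 ± 0.14, 0.0460), both under the highest background value. In regenerated against castrated arrays 1 was called lower and none higher. None of 5 pancreatic acinar markers and none of 5 endothelial markers rose above the highest background value in any group mean. Pancreatic sums were 6.65 to 7.16 in regenerated, 6.42 to 6.78 in castrated and 6.85 to 7.11 in intact arrays, and endothelial sums were 6.08 to 6.57 in regenerated, 6.05 to 6.20 in castrated and 6.12 to 6.15 in intact arrays. The part of the seminal vesicle, stromal, leukocyte and basal markers in the Spink differences was not tested.

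Of the 6 other Spink genes, Spink11 moved as several members did. It read 6.60, 6.54, 6.94 and 5.92 in regenerated arrays, 4.28, 4.51 and 4.61 in castrated arrays, and 6.18, 6.64 and 4.99 in intact arrays. Castrated arrays lay below both other groups, and intact replicate 3 was the lowest of the intact arrays. Spink11 fell by 1.47 ± 0.38 log2 in castrated against intact arrays (limma adjusted p = 0.0391) and rose by 2.03 ± 0.35 in regenerated against castrated arrays (limma adjusted p = 0.00861). The castration call ended without any 1 of intact replicates 1 and 2, the 3 castrated replicates or regenerated replicates 1 and 2 (adjusted p from 0.0529 to 0.147), and without the variance trend, in a fit of only those 2 groups, with a replicate block or with values under 4.76 raised to it (0.0539 to 0.201). That last setting also ended the call in regenerated against castrated arrays (adjusted p = 0.0629). The remaining 5 genes, Spink6, Spink7, Spink10, Spink12 and Spink13, lay between 3.15 and 4.62 on all arrays, inside the background range.

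Spink1, Spink5, Spink14 and Spinkl lie on chromosome 18, while Spink8, Spink2 and Spink4 lie on chromosomes 9, 5 and 4. Between Spink1 and Spink11 the RefSeq table of GRCm38.p6 lists 7 measured Spink genes with 3 other measured protein-coding genes among them. In their order on the chromosome, Spink1, Spink5 and Spink14 come first, Spink6 and Spink12 follow, and Spinkl and Spink11 close the row. The genes with lower values in castrated arrays were not one unbroken block: Scgb3a2, a secretoglobin gene next to Spink1, differed by 0.08 ± 0.11 log2 (limma adjusted p = 0.768), and Spink6 and Spink12 between Spink14 and Spinkl differed by -0.05 ± 0.11 and 0.03 ± 0.11. Each of these neighbours lay at background in every group, where a change would be hard to see.

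**Figure D5:**
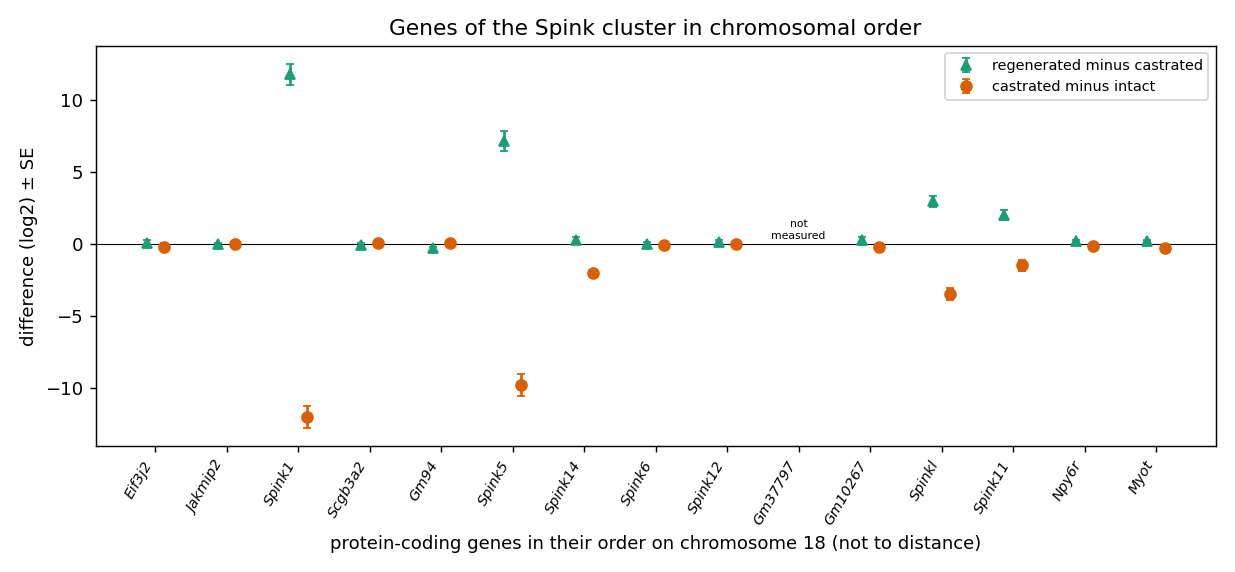
Differences in log2 with standard errors (vertical axis) for protein-coding genes in chromosomal order around the Spink cluster (horizontal axis, evenly spaced). Triangles are regenerated minus castrated and circles are castrated minus intact. Spink1, Spink5, Spinkl and Spink11 lie above zero in the first and below zero in the second, and Spink14 lies below zero in castrated minus intact with 0.28 in regenerated minus castrated.

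The proteases that Spink proteins are known to inhibit, or that belong to the same classes, were read from a list of 40 genes, of which 38 were measured. In castrated against intact arrays 4.82% of all genes were called higher and 3.19% lower. Of the 38, 1 was called higher and none lower there, with 6 at an unadjusted p under 0.05, and the median difference was 0.04 log2. The gene called was Plat, the tissue plasminogen activator, which rose to 9.31 ± 1.06 in castrated arrays, against 6.02 ± 0.22 in intact arrays (3.28 ± 0.42 log2, limma adjusted p = 0.00136, n = 3 each). It fell by 3.03 ± 0.39 log2 in regenerated against castrated arrays (limma adjusted p = 0.00186), reaching 6.27 ± 0.22 in regenerated arrays. None of the 38 passed in regenerated against intact arrays, where 11 of all 30142 genes passed. Among the 38, 1 had an unadjusted p under 0.05 there. The largest differences there were -0.70 ± 0.47 log2 for prostasin, Prss8, and 0.59 ± 0.42 for Tmprss13, with limma adjusted p = 0.712 and 0.729.

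By class, the 5 trypsin genes that Spink1 would meet in the pancreas lay between 3.53 and 5.01 on all arrays. The epidermal kallikreins Klk5, Klk7 and Klk14, the known partners of LEKTI, lay between 3.29 and 4.21, and acrosin between 3.63 and 4.01. These target classes thus stayed within the range of background rows in all 3 groups. The membrane-anchored protease St14, matriptase, was measurable throughout, at 9.31 to 10.46 in regenerated, 9.80 to 10.65 in castrated and 10.16 to 10.49 in intact arrays. Others of that kind differed more, though not called in the fit over all 30142 genes. Tmprss2 averaged 11.28 in regenerated, 10.35 in castrated and 11.38 in intact arrays, the castrated arrays lying below all others. Its castrated minus intact difference was -1.03 ± 0.31 log2 (limma adjusted p = 0.0743). For Tmprss13 that difference was 1.42 ± 0.45 log2 (limma adjusted p = 0.0856). With only genes above the highest background value tested, 2 of 6 genes of the list were called higher and 1 lower. Of all 10004 genes in that fit, 1424 were called higher and 1210 lower. The 3 classes are named for the known targets of the family, and St14 and Tmprss2 as measurable membrane-anchored proteases of the list. All of these are outside the rule for named genes.

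Among 24 measured inhibitors of serine proteases from other families, 1 was called lower and 1 higher in castrated against intact arrays. Of all genes 3.19% were called lower and 4.82% higher there. The median of the list was 0.13 log2, and 8 had an unadjusted p under 0.05, all but Wfdc3 being higher in castrated arrays. Wfdc3, a protein with whey acidic domains, fell to 4.68 ± 0.21 in castrated arrays, against 14.11 ± 0.19 in intact arrays (-9.43 ± 0.60 log2, limma adjusted p = 2.79e-05, n = 3 each). Serpinb1a, an inhibitor of neutrophil proteases, rose to 10.68 ± 0.21 in castrated arrays, against 7.61 ± 0.37 in intact arrays (3.07 ± 0.51 log2, limma adjusted p = 0.00516, n = 3 each). In regenerated against castrated arrays 1.97% of all genes were called higher and 3.01% lower. Of this list 2 rose and none fell, with 6 at an unadjusted p under 0.05 and a median of 0.02. They were Wfdc3 by 9.38 ± 0.56 log2 (limma adjusted p = 1.94e-05) and Eppin, a sperm-coating inhibitor with a whey acidic and a Kunitz domain, by 0.78 ± 0.12 (limma adjusted p = 0.00385) within the background range, a rise of 0 once values under 4.76 were raised to it. None passed in regenerated against intact arrays, where 8 had an unadjusted p under 0.05. Wfdc15b was 1.76 ± 0.59 log2 and the serpin gene Serpinb5 1.61 ± 0.28 log2 above intact arrays there (limma adjusted p = 0.33 and 0.123), and Serpinb5 passed with array weights (0.0215).

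Other proteins with a Kazal domain, such as follistatins and agrin, formed a list of 26 genes, of which 3 lay above the highest background value in any group. In castrated against intact arrays 4.82% of all genes were called higher and 3.19% lower. Of this list 2 were called higher and none lower there, with a median of 0.04 log2. They were the protease gene Htra1 by 0.57 ± 0.12 (limma adjusted p = 0.0156) and Fstl4, a follistatin-like gene, by 0.42 ± 0.08 (limma adjusted p = 0.0109). The same pair fell by 0.54 ± 0.11 and 0.40 ± 0.07 in regenerated against castrated arrays (limma adjusted p = 0.0203 and 0.0131), where 3.01% of all genes were called lower. None of the list rose there, where 1.97% of all genes were called higher. Both genes lay under 4.76 in every array, and both differences were 0 once values under 4.76 were raised to that number. The Htra1 calls also ended without intact replicate 1 or 2 (limma adjusted p = 0.0572 and 0.0694) in castrated against intact arrays, and without castrated replicate 2 or regenerated replicate 2 (0.0694 and 0.0599), in a fit of only the 2 groups (0.0609) or with a replicate block (0.0798) in regenerated against castrated arrays. None of the list passed in regenerated against intact arrays, where 2 had an unadjusted p under 0.05. The largest differences there were 1.88 ± 0.43 log2 for Igfbp7, a secreted protein that binds insulin-like growth factors, and 0.59 ± 0.19 for agrin, Agrn (limma adjusted p = 0.255 and 0.321).

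The genes whose pattern over the 10 arrays was most like that of Spink1 were found by Pearson correlation among 1944 genes that spanned at least 2 log2. They were Sbp (r = 0.984) and Sbpl (0.981), a spermine-binding protein of the prostate and its relative, the autophagy gene Wipi1 (0.973), Wfdc3 (0.971) and Dnajc1, an ER co-chaperone (0.971). Sbpl averaged 19.73 in regenerated, 14.07 in castrated and 19.89 in intact arrays. For Spink5 they were Bmpr1b, a receptor for bone morphogenetic proteins (0.992), Tarsl2, a threonyl-tRNA synthetase gene (0.990), Gpr155 (0.982), Atp1b1, a sodium pump subunit (0.981), and Clint1 (0.975). Bmpr1b shared the intermediate position of Spink5 after testosterone, at 10.64 in regenerated, 6.52 in castrated and 11.81 in intact arrays. For Spinkl they were Aldh18a1, an enzyme of proline synthesis (0.974), Dnajc1 (0.971), Magt1 (0.966), the ER calcium-binding protein gene Rcn2 (0.961) and Rgs2, a regulator of G protein signalling (0.954). These values describe 10 arrays that fall into 3 groups and share a normalization, so a gene low in castrated arrays is alike for that reason.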

How the data were processed

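The deposited table holds log2 intensities of 72688 rows on 10 arrays, which the authors computed by RMA; the submitters' processing notes name Affymetrix Expression Console. Its version and the genome build are not given in the sources used here. This method forces arrays to a common distribution, so a change of all transcripts in one direction would be reduced. Rows were named through the supplied platform annotation, with 827 symbols updated by gene identifier, and the row with the highest mean was kept for 355 genes with several rows. All 7 Spink genes had 1 row. Limma 3.58.1 in R 4.3.3 (lmFit, eBayes with trend) was fitted over 30142 genes and all arrays, 3 groups and 7 residual degrees of freedom, with two-sided tests and Benjamini-Hochberg adjustment within each contrast. The script was first tested on simulated data. The members and lists were chosen with earlier results of these data known. Genes named are the members, the other measured Spink genes, up to 4 called genes per list and contrast (or the 2 largest differences), and the 5 genes most like Spink1, Spink5 and Spinkl. The number of arrays limits precision. Alternatives were the trend, array weights, normalization, pairwise fits, background filter and floor, row choice, a replicate block and leaving out arrays. No sequences are shown.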

Additional observations from a re-analysis of the deposited data

Results flagged for a closer look

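Of 38 genes tested for a single array standing apart among the 4 regenerated arrays (Dixon's test), 3 did so, where chance flags about 1 in 20. Spinkl read 9.06 in regenerated replicate 3, against 7.08 to 7.33 in the other regenerated arrays. Spink14 read 4.78 in regenerated replicate 1, against 4.01 to 4.12. Prss8, the gene of prostasin, read 8.20 in regenerated replicate 4, against 10.04 to 10.19.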

How the results depend on the processing

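Of 369 recomputed differences of the 7 members, 367 moved by less than the spread between replicates, 2 moved by more and none changed direction among called ones; both that moved were Spink14 differences of -1.20 with low values raised to 4.76. The members called in regenerated against castrated arrays numbered 4 under every alternative run. Those called in castrated against intact arrays numbered 3 with only genes above the highest background value, where Spink14 was not tested, and 4 under the other alternatives run. In regenerated against intact arrays the count of members called was 0 without the trend, with quantile normalization repeated, with only the 2 groups compared, with only genes above the highest background value (which removes Spink14), with low values raised and with the replicate block, and 0 to 1 when arrays were left out. The count of all genes called there, 11, was 2 without the trend, 70 with array weights, 1 with quantile normalization repeated, 0 with 2 groups, 22 above background, 0 with low values raised, 4 with the replicate block and 0 to 78 with an array left out, the highest without regenerated replicate 1. In castrated against intact arrays 2414 genes became 4258 with array weights and 1019 (without intact replicate 1) to 3271 (without regenerated replicate 4) with an array left out. In regenerated against castrated arrays 1500 became 822 with 2 groups and 816 (without castrated replicate 2) to 2127 (without regenerated replicate 4). In the first of these contrasts the protease list count, 1, was 4 with array weights, 3 above background, 2 with the replicate block and 1 to 3 with an array left out. The inhibitor list count, 2, was 4 with array weights or 2 groups. The Kazal-domain count, 2, was 0 above background or with low values raised, and 1 to 2 with an array left out. In regenerated against castrated arrays the inhibitor count, 2, was 4 with array weights and 1 with low values raised. The Kazal-domain count, 2, was 1 with 2 groups, 0 above background or with low values raised, 1 with the replicate block and 1 to 3 with an array left out. In regenerated against intact arrays the inhibitor count, 0, was 1 with array weights. The causes of these moves were not tested, except that the background filter tests fewer genes and leaving out an array uses fewer samples.

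Replicate numbers did not pair the samples: of 9 same-number pairs 3 had deviations correlated above 0.1 (range -0.16 to 0.26), and 5 of 18 comparisons were best with their own number. The replicate block, over replicates 1 to 3, gave 2719 and 1650 calls in castrated against intact and regenerated against castrated arrays. For Spink11, Itgam, Cd3e and the named list genes, chosen for recomputing after seeing the data, 321 of 354 values kept their side of the threshold, 32 lost a call, 1 gained one and none reversed.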
